A study of Mus with 8 samples.

Results

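The collagen chain genes were all rows of the deposited count table whose mouse symbol has the form Col, a number, a, and a number, such as Col1a1. There were 44 of them among 24013 genes, 11 for fibrillar collagens, 8 for basement membrane collagens and 25 for other collagens. RNA had been sequenced in mouse 3T3-L1 preadipocytes infected with a pLKO.1 lentivirus and selected in puromycin, with no cloning described. C cells carried a scrambled shRNA and P cells an shRNA against Prep1 (Prep1 down-regulated, DR), a homeodomain transcription factor. Both were taken at day −2, which is 2 days before induction, and at day 1 after induction with dexamethasone, isobutylmethylxanthine and insulin in serum-containing medium, with 2 biological replicas in each of the 4 conditions. The paper describes 2 Prep1 shRNAs, in cells that it names P and P2, and RNA sequencing in C and P cells. With only 1 of these hairpins sequenced, an effect of Prep1 DR and one of that hairpin or of that infection cannot be told apart. The sample labels do not name the hairpin. The labels also give no date or batch.

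Collagens are the main structural proteins of the extracellular matrix, and each molecule is a helix wound from alpha chains that may come from different genes. Fibrillar collagens form the fibres that fibroblasts lay down, type IV collagen forms the sheet of the basement membrane that surrounds each adipocyte, and type VI collagen forms fine filaments that are abundant in fat. Preadipocytes have a fibroblast-like matrix, and the conversion to adipocytes is known for a remodelling of it.

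The libraries held between 20428816 and 27614353 counts. Levels are given in CPM, counts relative to library sizes scaled by edgeR's TMM method, with replica 1 before replica 2, and at this depth 3 counts correspond to between 0.107 and 0.160 CPM. Of the 44 genes, 38 passed the filter on low counts, among 13339 genes in all. All 11 fibrillar, 7 of 8 basement membrane and 20 of 25 other collagen genes passed. The 6 that did not (Col4a4, Col8a2, Col9a2, Col10a1, Col13a1 and Col26a1) had at most 16 counts in any library. Col21a1 was not among the rows used here. Prep1, listed as Pknox1, was lower in P than in C cells by 0.62 on the log2 scale at day −2 (Benjamini-Hochberg adjusted p = 0.0558 from the edgeR quasi-likelihood test) and by 0.65 at day 1 (adjusted p = 0.0575). The 7 preadipocyte or fibroblast markers each reached 1 CPM in a condition, with a summed level between 5030 and 10600 CPM. Of these, Cd34 had 0.106 and 0.107 CPM in the P libraries of day −2, no more than 3 counts. It had 1.75 and 1.77 in the C libraries of that day. Vim was the largest part of the sum in every library. At day −2 Vim had 8010 and 4000 CPM in the P libraries against 3670 and 3730 in the C libraries. Thy1 (941 and 683 against 140 and 134) and Pdgfrb (542 and 362 against 164 and 150) were also higher in P cells. So was Pdgfra (196 and 195 against 146 and 158). Dlk1 was lower (856 and 645 against 860 and 973), and Ly6a overlapped (27.6 and 61.2 against 48.7 and 54.6). None of 4 endothelial, 1 of 5 epithelial, 2 of 4 macrophage or leukocyte and 3 of 6 osteoblast markers reached 1 CPM in a condition. The osteoblast markers summed to 9.12 to 12.5 CPM in C cells and 3.14 to 3.25 in P cells at day −2. After induction the order was reversed, with sums of 1.77 to 1.95 CPM for C and 4.85 to 6.79 for P cells. Most of the sum in C cells before induction was Phex (7.21 and 9.34 CPM, against 0.266 and 1.32 in the P libraries). Alpl went the other way (0.0797 and 0.221 CPM in C, 0.798 and 0.749 in P libraries). The part of these markers in the collagen values was not tested.

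One library stood apart. In replica 1 of P cells at day −2, collagen genes took 9.16% of all counts, against 3.14% in replica 2. The C libraries had 2.21% and 2.08% at day −2 and 3.65% and 4.71% at day 1, and the P libraries of day 1 had 4.01% and 3.95%. The counting error of these shares was at most 0.012 percentage points (95% Wilson interval), far below the spread between replicas. The 11 fibrillar genes were all higher in replica 1 than in replica 2 of P cells at day −2, with a median log2 difference of 2.01, and the 38 genes tested had a median of 1.16, while the median over all genes was 0. This library also differed beyond the collagen genes, since of the 13339 genes tested 1391 were over 2-fold higher and 2295 over 2-fold lower in it than in replica 2 (SD of the log2 difference 1.00), and it had the fewest genes with counts (16232) and the lowest TMM factor (0.8375) of the 8. The mean share in P cells of day −2 was therefore 6.15% ± 4.25 (SD, n = 2), and counts that use that condition are given below with and without replica 1. A smaller shift was seen in C cells at day 1, where all 38 genes tested were lower in replica 1 than in replica 2 (median log2 difference −0.52).

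**Figure D1:**
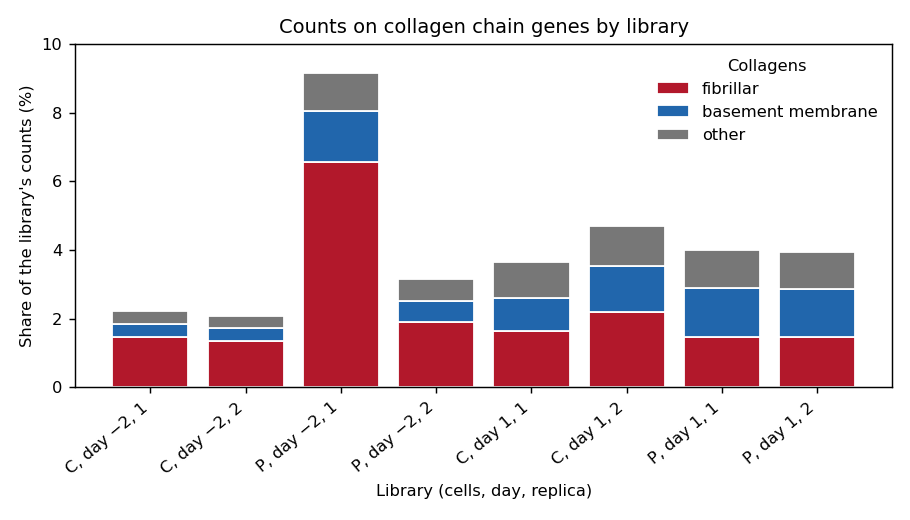
Share of each library's counts (%) on fibrillar (red), basement membrane (blue) and other (grey) collagen genes, with 1 bar per library. Replica 1 of P cells at day −2 reached 9.16%, of which 6.56 points were fibrillar, and the other libraries lay between 2.08% and 4.71%.

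In C cells the share was 2.15% ± 0.0926 at day −2 and 4.18% ± 0.752 at day 1 (SD, n = 2 each), and the replicas did not overlap. The fibrillar share had a mean of 1.40% at day −2 and 1.92% at day 1, the basement membrane share 0.394% and 1.15%, and the share of the other collagens 0.357% and 1.11%. The P libraries of day 1, with 3.98% ± 0.0425 (SD, n = 2), lay within the range of C cells at day 1. An exact two-sided permutation test of 2 libraries against 2 cannot give less than 0.3333, which is the p of the 2 days in C cells and of P and C cells before induction, while the 2 other comparisons had p = 1. Fewer producing cells and less RNA per cell cannot be told apart in these bulk libraries.

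The first question was how collagen genes respond to induction in control cells. Calls required a Benjamini-Hochberg adjusted p under 0.1 together with a ratio over 2 or under 0.5. In C cells, 17 of the 38 genes were called at day 1 against day −2, 12 higher and 5 lower. Over all genes tested, 20.4% were called, 10.7% higher and 9.68% lower. The median log2 ratio was 0.60 in the collagen genes and −0.01 over all genes tested. Of the 11 fibrillar genes, 3 rose and none fell (median 1.04), and of the 7 basement membrane genes 4 rose and none fell (median 1.23). Of the 20 others, 5 rose and 5 fell (median −0.35). Among those that fell, Col6a4, Col6a5, Col6a6 and Col25a1 had at most 5 counts in each C library of day 1. They were not tested when at least 10 counts were required in every library. In that fit 13 of 26 collagen genes were called (median 1.20), where 17.9% of all genes were called. Without replica 1 or replica 2 of C cells at day −2, 6 of 40 and 6 of 42 collagen genes tested were called, where 11.9% and 12.2% of all genes were called. Without replica 2 of C cells at day 1 it was 11 of 40, where 13.8% of all genes were called. DESeq2 called 21 of 38, with 6 of the 11 fibrillar genes, where it called 20.9% of all genes. Fitted with the 4 libraries of C cells alone, 22 of 37 were called, again with 6 of the 11 fibrillar genes. Of all genes, 24.3% were called in that fit.

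Among the fibrillar genes, those of types I and III are the usual ones of connective tissue. Col1a1 had 3932 and 3294 CPM in the C libraries of day −2, 23547 and 4880 in the P libraries of day −2, 2422 and 3153 in the C libraries of day 1, and 1545.0 and 1480.4 in the P libraries of day 1. Col1a2, the partner chain of type I collagen, had 5147.5 and 4590.4 CPM in the C libraries of day −2, 28485 and 7427 in the P libraries of day −2, 4740.2 and 7019 in the C libraries of day 1, and 4368 and 4553 in the P libraries of day 1. For both genes the P libraries at day −2 were the highest of their day, replica 1 by far. Col1a1 was lower in both P libraries at day 1 than in any other library, and the replicas of C cells were lower at day 1 than at day −2, while those for Col1a2 overlapped between the days. In C cells neither was called (log2 ratio −0.37 and 0.27, adjusted p = 0.694 and 0.751, edgeR's quasi-likelihood test). Col3a1, the chain of type III collagen that shares fibres with type I, had 3212 and 3036 CPM in the C libraries of day −2, 15758 and 3902 in the P libraries of day −2, 6359 and 8514 in the C libraries of day 1, and 5078 and 4997 in the P libraries of day 1. Its replicas in C cells did not overlap between the days, with a log2 ratio equal to 1.25 (standard error 0.56, adjusted p = 0.147, not called).

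Type V collagen sits in the core of type I fibres and sets their start and width. Col5a1 had 749 and 698 CPM in the C libraries of day −2, 4197 and 966 in the P libraries of day −2, 1388 and 1889.9 in the C libraries of day 1, and 1321 and 1349.9 in the P libraries of day 1. Col5a2 had 818 and 729 CPM in the C libraries of day −2, 5777 and 1415 in the P libraries of day −2, 1198 and 1716 in the C libraries of day 1, and 1037 and 1049 in the P libraries of day 1. In C cells both were higher in each library at day 1 than at day −2, by log2 ratios of 1.18 and 0.91 that were not called (adjusted p = 0.182 and 0.278, edgeR's quasi-likelihood test).

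The fibrillar genes that edgeR called in C cells with all libraries belong to types XI and XXVII, which are known from cartilage. Col3a1 and Col5a1 were also called there by DESeq2 and in the fit of the 4 C libraries alone. Col11a1 had 8.36 and 8.68 CPM in the C libraries of day −2, 143 and 37.1 in the P libraries of day −2, 44.9 and 67.9 in the C libraries of day 1, and 123 and 127 in the P libraries of day 1. Every library other than those of C cells at day −2 was above 37 CPM, and the P libraries at day 1 were above both C libraries of that day. Its log2 ratio in C cells was 2.73 (standard error 0.59, adjusted p = 0.0165, edgeR's quasi-likelihood test). Col11a2, its partner chain, had 5.97 and 5.27 CPM in the C libraries of day −2, 31.2 and 6.13 in the P libraries of day −2, 42.2 and 63.5 in the C libraries of day 1, and 32.8 and 38.4 in the P libraries of day 1. Col27a1 had 8.05 and 8.06 CPM in the C libraries of day −2, 51.3 and 11.5 in the P libraries of day −2, 29.1 and 41.8 in the C libraries of day 1, and 39.5 and 45.9 in the P libraries of day 1. Both were high in all libraries of day 1 and in P replica 1 of day −2, and in C cells rose by log2 ratios of 3.23 and 2.14 (adjusted p = 0.0164 and 0.0458). Of 6 chondrocyte markers, 2 reached 1 CPM in a condition and none was at 0 in all libraries. Their summed level was 103 to 119 CPM in C cells at day −2 and 122 to 164 at day 1. In P cells it was 49.4 to 91.4 at day −2 and 119 to 131 at day 1. Nearly all of it was Sox9 (103 and 117 CPM in the C libraries of day −2, and 163 and 120 at day 1). Acan, Matn1, Matn3 and Cnmd were at most 0.354 CPM in any library. The part of chondrocytes in these collagen values was not tested.

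The basement membrane genes were led by the common chains of type IV collagen. Col4a1 had 2226.5 and 2059 CPM in the C libraries of day −2, 11058 and 3487 in the P libraries of day −2, 5763 and 7864.5 in the C libraries of day 1, and 8227 and 8010.0 in the P libraries of day 1. Col4a2 had 1394 and 1234 CPM in the C libraries of day −2, 5988 and 2139 in the P libraries of day −2, 3784 and 5333.5 in the C libraries of day 1, and 5147 and 5093 in the P libraries of day 1. In C cells the days did not overlap for either gene, and they rose by log2 ratios of 1.67 (standard error 0.49, adjusted p = 0.0460) and 1.79 (standard error 0.45, adjusted p = 0.0282, edgeR's quasi-likelihood test). The genes overlap each other in the GRCm38.p6 annotation, and the use of the strand in counting is not given in the sources used here, so that some of their reads may not be told apart. Col4a5, a chain known from the basement membrane of the kidney, had 126 and 144 CPM in the C libraries of day −2, 499 and 218 in the P libraries of day −2, 80.6 and 91.4 in the C libraries of day 1, and 82.7 and 74.8 in the P libraries of day 1. It differed from its relatives in being lower at day 1 than at day −2 in both cell types. Its log2 ratio in C cells was −0.65 (adjusted p = 0.218, not called).

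Type XV and type XVIII collagens are proteoglycans that border the basement membrane. Col15a1 had 0.797 and 0.708 CPM in the C libraries of day −2, 16.1 and 8.09 in the P libraries of day −2, 5.60 and 6.13 in the C libraries of day 1, and 24.6 and 23.0 in the P libraries of day 1. The conditions did not overlap, with the C cells of day −2 lowest, then the C cells of day 1, the P cells of day −2 and the P cells of day 1. It rose in C cells by 2.95 on the log2 scale (standard error 0.38, adjusted p = 0.0022, edgeR's quasi-likelihood test). Col18a1, the source of endostatin, had 147 and 130 CPM in the C libraries of day −2, 265 and 86.4 in the P libraries of day −2, 279 and 374 in the C libraries of day 1, and 123 and 128 in the P libraries of day 1. Both C libraries of day 1 were above all other libraries, and the log2 ratio in C cells was 1.23 (adjusted p = 0.0962).

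Of the other collagens, 2 of the 3 common chains of type VI rose and its 3 rare ones fell in C cells. Col6a1 had 1322 and 1078 CPM in the C libraries of day −2, 3613 and 1829 in the P libraries of day −2, 4952 and 5747.5 in the C libraries of day 1, and 4763 and 4616 in the P libraries of day 1. Col6a2 had 856 and 807 CPM in the C libraries of day −2, 2723 and 1147 in the P libraries of day −2, 3818 and 4249 in the C libraries of day 1, and 3696 and 3597 in the P libraries of day 1. For both, all libraries of day 1 were above all of day −2, and in C cells they rose by log2 ratios of 2.16 (adjusted p = 0.00424) and 2.28 (adjusted p = 0.00619, edgeR's quasi-likelihood test). Col6a3, the long chain that carries the endotrophin fragment, had 900.2 and 908 CPM in the C libraries of day −2, 5202 and 2259 in the P libraries of day −2, 1213 and 1546 in the C libraries of day 1, and 1529 and 1479 in the P libraries of day 1. Its ratio in C cells was smaller (0.61, adjusted p = 0.256, not called), and both P libraries of day −2 were above every other library. The related chains Col6a4, Col6a5 and Col6a6 fell in C cells by 2.90, 3.03 and 3.28 on the log2 scale. They were at most 1.03 CPM in any library, and 0.199 CPM or less in C cells at day 1, close to the floor of 3 counts, and none was called with at least 10 counts required in every library, which removed them from the test.

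Among the 38 genes tested, the largest rise in C cells was in Col23a1, a collagen that spans the cell membrane. It had 0.956 and 0.620 CPM in the C libraries of day −2, 8.68 and 4.24 in the P libraries of day −2, 45.8 and 58.8 in the C libraries of day 1, and 12.4 and 13.8 in the P libraries of day 1. No 2 conditions overlapped, and the log2 ratio in C cells was 6.03 (standard error 0.44, adjusted p = 0.000263, edgeR's quasi-likelihood test). The largest fall there was in Col8a1, a short chain that forms networks in vessel walls and below endothelia. It had 16.6 and 18.0 CPM in the C libraries of day −2, 164 and 78.3 in the P libraries of day −2, 0.513 and 0.875 in the C libraries of day 1, and 3.50 and 3.03 in the P libraries of day 1. It fell by 4.63 in C cells (standard error 0.45, adjusted p = 0.000738), and again no 2 conditions overlapped. Col25a1, another membrane-spanning collagen, fell by 3.36, from 1.75 and 1.20 CPM to 0.118 and 0.159, again at the floor.

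The FACIT collagens lie on the surface of fibres. Col20a1 had 2.79 and 3.72 CPM in the C libraries of day −2, 7.40 and 4.78 in the P libraries of day −2, 16.4 and 23.0 in the C libraries of day 1, and 15.9 and 20.9 in the P libraries of day 1. All its libraries of day 1 were above all of day −2, with a log2 ratio of 2.60 in C cells (adjusted p = 0.00199, edgeR's quasi-likelihood test). Col12a1 had 167 and 170 CPM in the C libraries of day −2, 569 and 674 in the P libraries of day −2, 313 and 348 in the C libraries of day 1, and 578 and 564 in the P libraries of day 1. It was the described gene in which both P libraries of day −2 were most alike, the P libraries of both days overlapped, and the rise in C cells (0.97, adjusted p = 0.00445) lay just under the ratio threshold. Col9a3, a chain of the cartilage type IX, had 2.15 and 2.97 CPM in the C libraries of day −2, 5.48 and 2.78 in the P libraries of day −2, 4.18 and 14.7 in the C libraries of day 1, and 4.61 and 4.62 in the P libraries of day 1. Its rise in C cells (1.89, adjusted p = 0.0634) rested mainly on replica 2. Col16a1 had 217 and 210 CPM in the C libraries of day −2, 857 and 233 in the P libraries of day −2, 155 and 232 in the C libraries of day 1, and 161 and 165 in the P libraries of day 1. Its days overlapped in C cells (−0.14, adjusted p = 0.871).

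**Figure D2:**
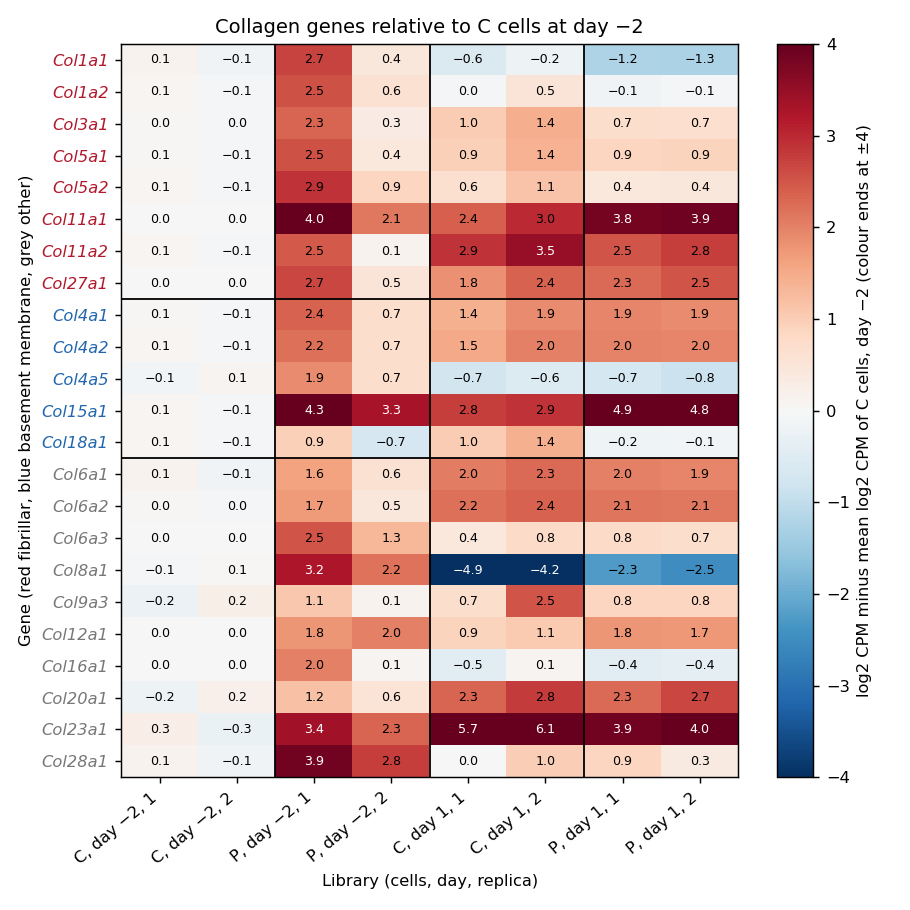
Difference in log2 CPM (prior count 2) from the mean of C cells at day −2 for the 23 described collagen genes in each of the 8 libraries, with gene names in red (fibrillar), blue (basement membrane) or grey (other). Replica 1 of P cells at day −2 is higher for all 23 genes, and replica 2 for 22 of them, by less for most.

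The next comparison asked how P cells differ from C cells before any inducer was added. At day −2, 13 of the 38 collagen genes were called, 12 higher and 1 lower in P cells, where 6.98% of all genes tested were called, 4.83% higher and 2.15% lower. The median log2 ratio was 1.28, against 0.01 over all genes, and it was 1.84 in the fibrillar, 1.41 in the basement membrane and 0.75 in the other collagen genes. All 11 fibrillar genes had a ratio above 0, but only Col11a1 and Col5a2 were called. Col1a1, Col1a2 and Col3a1 had log2 ratios of 1.98, 1.88 and 1.65 with adjusted p of 0.122, 0.106 and 0.138 (edgeR's quasi-likelihood test) and P replicas that lay far apart. DESeq2, in place of edgeR, called 8 of the 11 fibrillar genes and 20 of the 38 in all, where it called 9.48% of all genes.

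Replica 1 set much of the size of these values. Against the mean of C cells, 25 of the 38 genes were over 2-fold higher in replica 1 and 7 in replica 2, and the latter 7 were among the former. Over all 13339 genes tested, 2017 were over 2-fold higher in replica 1, 698 in replica 2 and 477 in both. The median log2 difference was 1.73 in replica 1 and 0.43 in replica 2. Without replica 1, 8 of 41 collagen genes tested were called, where 6.49% of all genes were called. Of these 8, 7 were higher (Col6a3, Col8a1, Col11a1, Col12a1, Col15a1, Col23a1 and Col28a1) and 1 was lower (Col7a1, −1.65), and the median over the 41 was 0.44. Those 7 were called higher with all libraries, without replica 1 and without replica 2. Without replica 2, 26 were called, of 39 tested, including all 11 fibrillar genes, but 31.3% of all genes tested were then called as well. With 1 P library left, that library was assumed to vary like the other conditions.

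**Figure D3:**
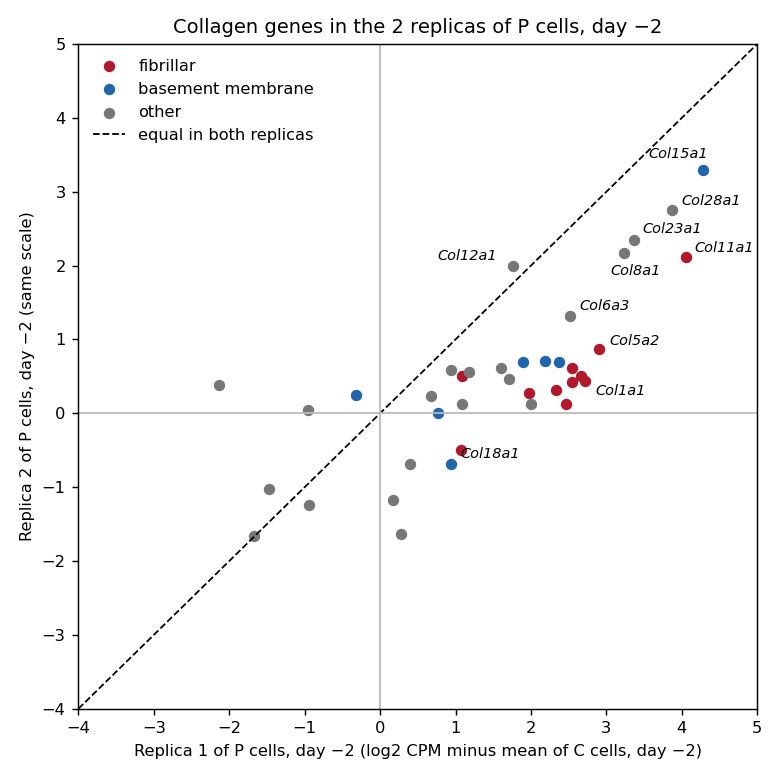
Each point is 1 of the 38 collagen genes tested, placed by its log2 CPM (prior count 2) minus the mean of C cells at day −2 in replica 1 (horizontal axis) and replica 2 (vertical axis) of P cells at day −2, with the dashed line where both replicas are equal. Most fibrillar genes (red) lie far to the right and near 0 on the vertical axis (medians 2.54 and 0.44), and 7 genes exceed 1 on both axes.

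The 7 genes that were called with either replica are of mixed kinds. Col15a1 differed most, by 3.99 on the log2 scale (standard error 0.38, adjusted p = 0.00301, edgeR's quasi-likelihood test), and by 3.42 without replica 1. Col28a1, an unclassified collagen known from peripheral nerve, had 1.87 and 1.55 CPM in the C libraries of day −2, 26.1 and 11.9 in the P libraries of day −2, 1.74 and 3.46 in the C libraries of day 1, and 3.16 and 2.19 in the P libraries of day 1. It was high in both P libraries of day −2 and in no other, with a log2 ratio equal to 3.47 (standard error 0.51, adjusted p = 0.0131) and of 2.80 without replica 1. Col11a1 was higher by 3.40 (adjusted p = 0.0253) and by 2.13 without replica 1. Col23a1 and Col8a1 were higher by 3.01 (adjusted p = 0.0106) and 2.81 (adjusted p = 0.00926), and by 2.42 and 2.19 without replica 1. Col6a3 was higher by 2.05 (adjusted p = 0.0276) and by 1.33 without it. Col12a1 had the smallest error of these, with a log2 ratio equal to 1.88 (standard error 0.15, adjusted p = 0.0020), and its ratio was 2.01 without replica 1. Over 17 alternative fits, Col12a1 and Col15a1 kept this call in all. Col23a1 lost it in 2, and Col6a3, Col8a1, Col11a1 and Col28a1 in 3 each. With the 4 libraries of day −2 alone, only Col12a1 and Col15a1 were called.

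The other 5 genes called higher depended on replica 1. Col4a1 and Col4a2 had ratios of 1.76 and 1.63 with it and 0.71 and 0.71 without it, Col4a5 had 1.41 and 0.70, Col5a2 2.22 and 0.88, and Col6a1 1.18 and 0.62. Their ratios stayed above 0 without replica 1 and passed the adjusted p but not the ratio threshold. Col18a1 turned from 0.34 to −0.67. Col6a5, the gene called lower (−2.24), was at 0.107 CPM or less in both P libraries, at the floor, and was not called without replica 1 (adjusted p = 0.187).

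Marker genes of another cell type also moved in this comparison. The summed level of the 5 smooth muscle markers was 256 to 290 CPM in P cells and 63.5 to 73.0 in C cells at day −2, and 36.1 to 66.1 at day 1. Actg2 had 140 and 171 CPM in the P libraries and 12.9 and 12.1 in the C libraries of day −2, and Smtn 142 and 79.1 against 55.1 and 47.8. Myh11, which defines that cell type, was at most 1.33 CPM in any library, and none of the list was at 0 in all. Between the P replicas of day −2, Smtn and Des (6.60 and 3.24 CPM) were higher in replica 1 and Actg2 was lower. The part of this list in the collagen values was not tested.

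At day 1, P and C cells differed in 3 of 38 collagen genes (7.89%), where 4.06% of all genes were called (1.83% higher and 2.23% lower), and the median log2 ratio was −0.11 against 0.01 over all genes. Col15a1 and Col8a1 were higher in P cells by 2.02 (standard error 0.33, adjusted p = 0.0238) and 2.23 (standard error 0.45, adjusted p = 0.0488), and Col23a1 was lower by 2.00 (standard error 0.35, adjusted p = 0.032, edgeR's quasi-likelihood test). Their libraries did not overlap, and these 3 were among those called without either P replica of day −2. Those replicas enter this comparison only through the shared estimate of the spread. No collagen gene was called by edgeR when any of the 4 libraries of day 1 was left out, with 5 to 8 at an unadjusted p under 0.05. Fitted with the 4 libraries of day 1 alone, 5 of 29 collagen genes tested were called, where 7.16% of all genes were called, with Col11a1 higher by 1.15 (adjusted p = 0.00629) and Col18a1 lower by 1.38 (adjusted p = 0.00131, edgeR's quasi-likelihood test). Col12a1 was higher by 0.79 (adjusted p = 0.0376 in the fit of all libraries), under the ratio threshold. With all libraries none of the 11 fibrillar genes was called by edgeR or by DESeq2, and none had an unadjusted p under 0.05 in edgeR. Their median ratio was −0.40, and 8 of the 11 were below 0. With the 4 libraries of day 1 alone, 6 of the 11 had an unadjusted p under 0.05 in edgeR, and only Col11a1 was called. Among those under the ratio threshold there, Col1a1 was lower by 0.88 (adjusted p = 0.00759) and Col3a1 by 0.56 (adjusted p = 0.0476, edgeR's quasi-likelihood test).

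Induction in P cells was then compared with that in C cells. In P cells, 12 of the 38 collagen genes were called at day 1 against day −2, 2 higher and 10 lower, where 18.0% of all genes were called, 7.65% higher and 10.4% lower. The median log2 ratio was −0.61, against 0.02 over all genes. Col20a1 rose by 1.60 (adjusted p = 0.0135) and Col23a1 by 1.03 (adjusted p = 0.0818, edgeR's quasi-likelihood test). The falls were led by Col8a1 (−5.21, adjusted p = 0.000567), Col1a1 (−3.23, adjusted p = 0.0171), Col28a1 (−2.82, adjusted p = 0.00929) and Col4a5 (−2.18, adjusted p = 0.00803). Col1a2, Col5a2, Col6a3 and Col16a1 fell by 2.01, 1.79, 1.31 and 1.74, and Col17a1 and Col19a1, which were below 3 CPM in every P library, by 1.98 and 2.43. Among the pairs of chains of 1 molecule, type I fell in both chains and type V in Col5a2 only, while Col5a1 had −0.95 (adjusted p = 0.277).

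This comparison also rested on replica 1. Without it, 18 of 41 collagen genes tested were called, 11 higher and 7 lower, where 15.1% of all genes were called, and the median was 0.31. Of the 12 genes called with all libraries, 7 were still called. Col8a1 (−4.59), Col28a1 (−2.16), Col17a1 (−1.82), Col1a1 (−1.70) and Col4a5 (−1.48) were lower, and Col20a1 (1.94) and Col23a1 (1.61) were higher. Col4a1, Col4a2, Col6a1 and Col6a2 were then called higher by 1.21, 1.25, 1.35 and 1.66, as were Col11a1 (1.74), Col11a2 (2.53), Col15a1 (1.55), Col27a1 (1.88) and Col5a3 (1.05). The 2 others called lower were Col10a1 and Col25a1. Col3a1, Col5a1 and Col18a1 changed sign, to 0.36, 0.46 and 0.52. Without replica 2 the counts were 1 higher and 17 lower of 39 tested, where 35.8% of all genes were called. The fall of Col1a1, Col4a5, Col8a1, Col17a1 and Col28a1 and the rise of Col20a1 were called with all libraries and without either replica. Over 17 alternative fits, Col4a5, Col8a1 and Col28a1 kept this call in all, Col20a1 lost it in 1 and Col1a1 in 3. Col17a1, with 19 and 3 counts in the P libraries of day 1, lost it in 9 of 16.

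**Figure D4:**
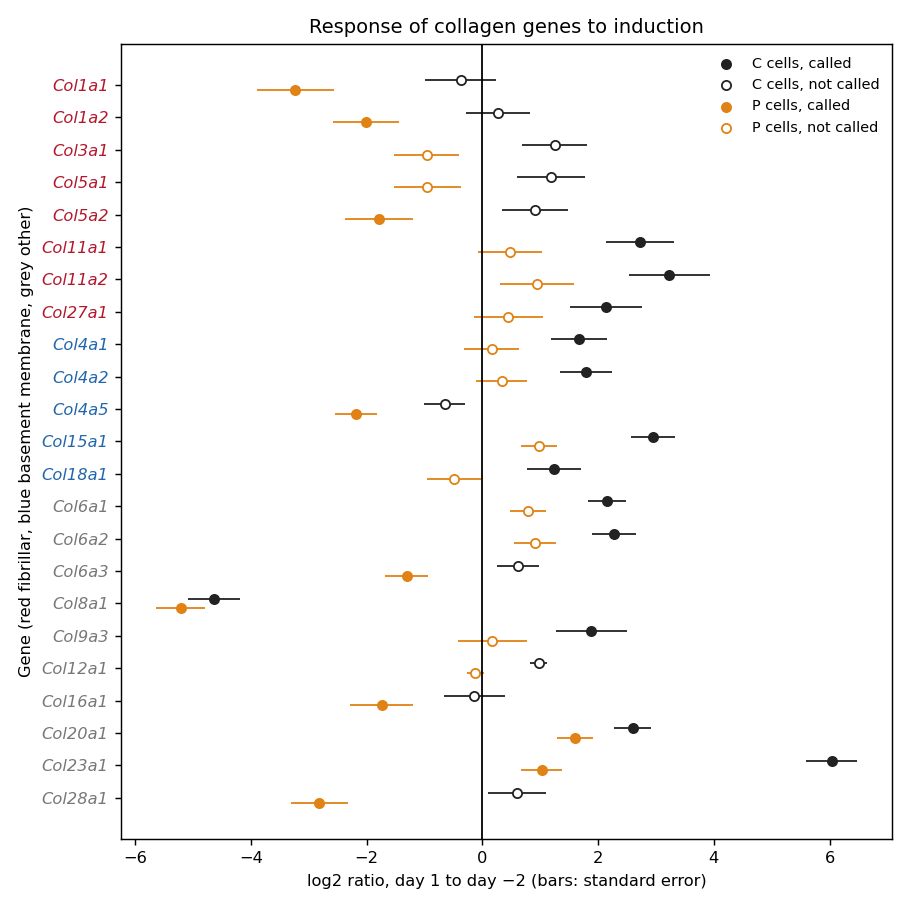
Log2 ratio of day 1 to day −2 with its standard error in C cells (black) and P cells (orange) for the 23 described collagen genes, filled where the gene was called. The ratio is lower in P than in C cells for every gene shown, from Col8a1 (−5.21 and −4.63) to Col23a1 (1.03 and 6.03).

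The difference between the responses was itself tested, as the response of P cells minus that of C cells. It was called, at an adjusted p under 0.1, in 3 of 38 collagen genes (7.89%), all lower in P cells, where 2.37% of all genes were called, 0.435% higher and 1.93% lower. These were Col23a1 (−5.01, standard error 0.55, adjusted p = 0.0130), Col28a1 (−3.42, standard error 0.70, adjusted p = 0.0867) and Col12a1 (−1.09, standard error 0.21, adjusted p = 0.0712, edgeR's quasi-likelihood test). Without replica 1 of P cells at day −2 the 3 were called at −4.44, −2.78 and −1.24, and they were also called without replica 2, where 60.0% of all genes were called. Over 16 alternative fits, Col23a1 lost its call in 4, Col28a1 in 8 and Col12a1 in 9. Without any 1 of the C libraries of day −2 or the P libraries of day 1, edgeR called 0 collagen genes, with 8 to 12 at an unadjusted p under 0.05. The median difference was −1.42 in the collagen genes and −0.01 over all genes, and 30 of the 38 were below 0, including all 11 fibrillar genes. Of these 11, edgeR called 0, with an unadjusted p under 0.05 in 7. DESeq2 called 6 of them, where it called 6.97% of all genes. Without replica 1 the median was −0.69 and 15 of 41 were called, all lower, including Col1a1 (−1.35), Col1a2 (−1.04), Col3a1 (−0.92), Col5a1 (−0.75) and Col5a2 (−1.39), where 10.6% of all genes were called. The comparisons share libraries, since those of P cells at day −2 enter both the response of P cells and the difference from C cells before induction.

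The balance between chains was followed as a ratio of counts within a library, which does not depend on the scaling of the libraries. The pairs were chosen after values had been seen, and since a ratio of counts also reflects the lengths of the transcripts, only its change between conditions is described. Col1a1 to Col1a2, the chains of type I collagen, was 0.764 and 0.718 in the C libraries of day −2, 0.827 and 0.657 in the P libraries of day −2, 0.511 and 0.449 in the C libraries of day 1, and 0.354 and 0.325 in the P libraries of day 1. All libraries of day 1 were below all of day −2, with a mean of 0.741 ± 0.0327 before and 0.480 ± 0.0436 after induction in C cells and of 0.742 ± 0.120 and 0.339 ± 0.0202 in P cells (SD, n = 2 each). Col3a1 to Col1a1 was 0.817 and 0.922 in the C libraries of day −2, 0.669 and 0.800 in the P libraries of day −2, 2.63 and 2.70 in the C libraries of day 1, and 3.29 and 3.38 in the P libraries of day 1. It was higher at day 1 in both cell types, and replica 1 of P cells at day −2, with its high collagen counts, had ratios close to those of the other libraries of its day.

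Col6a3 to Col6a1 was 0.681 and 0.842 in the C libraries of day −2, 1.44 and 1.23 in the P libraries of day −2, 0.245 and 0.269 in the C libraries of day 1, and 0.321 and 0.320 in the P libraries of day 1. On both days the P libraries were above the C libraries. For Col5a1 to Col5a2, the C libraries were higher at day −2, with a mean of 0.937 against 0.705, and the P libraries at day 1, with 1.28 against 1.13. In contrast, Col4a1 to Col4a2 stayed between 1.47 and 1.85 and Col6a1 to Col6a2 between 1.28 and 1.60 in all 8 libraries. The mean log2 change was −0.87 for Col1a1 to Col1a2, 1.90 for Col3a1 to Col1a1, −1.81 for Col6a3 to Col6a1, 0.57 for Col5a1 to Col5a2 and −0.13 for Col4a1 to Col4a2.

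**Figure D5:**
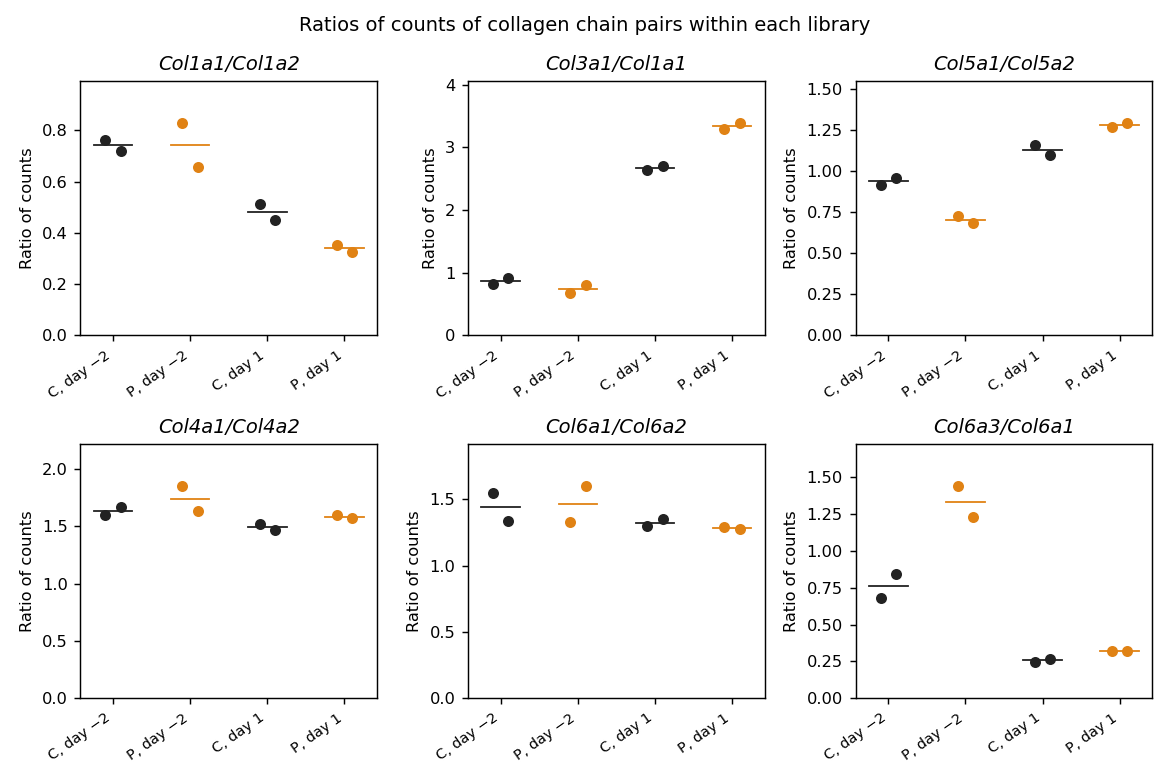
Ratio of counts of each pair of collagen genes in every library (points) with the mean of the condition (line), for C cells (black) and P cells (orange). Col1a1 to Col1a2 and Col6a3 to Col6a1 are lower and Col3a1 to Col1a1 and Col5a1 to Col5a2 higher at day 1, while Col6a1 to Col6a2 stays between 1.28 and 1.60.

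Several collagen genes neighbour each other in the GRCm38.p6 annotation. No other gene of the table lies between Col4a1 and Col4a2, Col6a1 and Col6a2, Col3a1 and Col5a2, or Col4a5 and Col4a6. The Col4a1 and Col4a2 neighbours had like ratios in every comparison, as did Col6a1 and Col6a2. For Col3a1 and Col5a2, the log2 ratios on induction were 1.25 and 0.91 for C cells, and −0.96 and −1.79 for P cells. Col4a6 was at most 2.65 CPM in any library and was called in no comparison, while Col4a5 fell in P cells. The genes of the rare type VI chains, Col6a4, Col6a5 and Col6a6, lie side by side and fell together in C cells, at levels near the floor.

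Genes of collagen synthesis and binding were followed as lists. Of 27 genes for collagen maturation, 6 rose and 3 fell in C cells on induction (median log2 ratio 0.28), where 20.4% of all genes were called. Adamts2, the protease that removes the amino-terminal propeptide, rose by 2.44 (adjusted p = 0.000993), Plod1, a lysyl hydroxylase, by 1.29 (adjusted p = 0.00238), and P4ha2, a subunit of prolyl 4-hydroxylase, by 1.03 (adjusted p = 0.00219, edgeR's quasi-likelihood test). In P cells 1 rose and 4 fell, with and without replica 1 of day −2, which is 18.5% of the list against 18.0% of all genes, with Adamts2 at 1.47 (adjusted p = 0.00808). Creb3l1, a transcription factor known to act on type I collagen genes in bone, fell there by 2.98 (adjusted p = 0.00116). It also fell in C cells, by 1.61 (adjusted p = 0.00796, edgeR's quasi-likelihood test). Serpinh1, the collagen chaperone HSP47, fell in P cells by 1.43 (adjusted p = 0.00849). Serpinh1 had 1239 and 1112.5 CPM in the C libraries of day −2, 2744 and 1753 in the P libraries of day −2, 828 and 984 in the C libraries of day 1, and 898 and 772 in the P libraries of day 1. Like Col1a1, Col1a2 and Col3a1, it was highest in replica 1 of P cells at day −2. For all of these genes, replica 2 was also above the C libraries of that day.

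Before induction, 5 of these 27 genes were higher and 1 lower in P cells (median 0.40), and the same counts were obtained without replica 1, among them Adamts2 (1.5, adjusted p = 0.0198) and P4ha3 (1.58, adjusted p = 0.0360), with Adamts14 lower (−1.59, adjusted p = 0.0411). Of all genes, 6.98% were called. By edgeR, none of the list was called without replica 1 or replica 2 of C cells at day −2 or with the 4 libraries of that day alone, and 3 were called without either P library of day 1. At day 1, Pcolce2, an enhancer of propeptide removal, was higher in P cells (2.03, adjusted p = 0.0403), and Bmp1, the protease that removes the carboxy-terminal propeptide, was lower (−1.20, adjusted p = 0.0225), as was Adamts14 (−1.60, adjusted p = 0.0543, edgeR's quasi-likelihood test).

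Of 16 genes for proteins that bind collagen fibrils, 9 rose and 1 fell in C cells on induction (median 1.65), and 6 rose and 4 fell in P cells (median 0.48), or 6 and 3 without replica 1 of day −2, where 20.4% and 18.0% of all genes were called with all libraries. The count in C cells was 5 in place of 10 without either replica of day −2, and that in P cells was 4 in place of 10 without either replica of day 1 and 3 with its own 4 libraries. Fn1, fibronectin, rose by 1.67 in C cells (adjusted p = 0.000479) and was lower in P than in C cells at day 1 by 1.17 (adjusted p = 0.00923). Tnxb, tenascin-X, rose by 1.86 in C cells (adjusted p = 0.00199) and was lower in P cells at day 1 by 1.46 (adjusted p = 0.0224, edgeR's quasi-likelihood test). Postn, periostin, rose in both, by 2.38 and 2.46, and Prelp fell in P cells by 2.67. At day −2 Prelp (1.98, adjusted p = 0.0156) and Fbln2 (1.07, adjusted p = 0.0788) were higher in P cells. Of these 16 genes, 11 were lower in replica 1 than in replica 2 of P cells at day −2 (median log2 difference −0.49), the opposite of the collagen genes.

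Among 9 collagen receptor genes, Itga1, the integrin chain that binds collagen IV, was higher in P cells at day −2 by 2.95 (adjusted p = 0.00546) and at day 1 by 1.37 (adjusted p = 0.0764). Itga1 had 1.43 and 1.28 CPM in the C libraries of day −2, 7.66 and 13.4 in the P libraries of day −2, 1.93 and 2.23 in the C libraries of day 1, and 5.94 and 4.81 in the P libraries of day 1, so that the P libraries were above the C libraries on both days. On induction, 2 of the 9 were called in C cells and 2 in P cells (22.2% each). Of all genes, 20.4% and 18.0% were called. Mrc2, an endocytic collagen receptor, rose by 1.05 in C cells (adjusted p = 0.0439). Mrc2 was not called there with library totals in place of TMM. Adgrg1, a receptor for type III collagen, fell by 3.29 in C cells (adjusted p = 0.00678). Adgrg1 also fell in P cells, with a log2 ratio of −3.2 (adjusted p = 0.0117, edgeR's quasi-likelihood test).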

How the data were processed

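The authors sequenced 8 libraries on the Ion Torrent system, ran the FASTX-Toolkit on the reads, mapped them on mm9 with TopHat2 2.0.9 and counted reads per NCBI gene on refGene. The deposited counts are whole numbers without normalization. The counting of reads that fit several places, and of strands, is not given in the sources used here. Symbols came from RefSeq (GRCm38.p6) for 23929 of 24013 genes. The counts were fitted in R 4.3.3 with edgeR 4.0.16 (filterByExpr, TMM, quasi-likelihood, 1 mean per condition, all 8 libraries, 2-sided tests, Benjamini-Hochberg adjustment over 13339 genes), after a check on simulated counts. Log2 CPM had a prior count of 2. DESeq2 1.42.0 was an alternative.

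The 44 collagen genes, their classes and the lists of related genes were chosen with earlier results of these data known. Described with each library's value were genes called in any test with a mean of at least 50 counts, and 10 main chains. From the lists, at most 3 called genes with the lowest p and at least 50 counts were named per comparison. Creb3l1 was added to these for C cells. That addition, Actg2, Smtn, Des, Myh11 and the other marker genes named were chosen after values were seen. So were the pairs of chains and the values of each library for Serpinh1 and Itga1.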

Additional observations from a re-analysis of the deposited data

Results flagged for a closer look

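For 3 collagen genes, C and P cells differed in how they responded to induction, by a test of the difference itself. The response of P cells minus that of C cells was −5.01 on the log2 scale for Col23a1, −3.42 for Col28a1 and −1.09 for Col12a1, from the edgeR interaction test described above.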

How the results depend on the processing

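With 2 replicas per condition, all calls lean on a spread estimated over the 8 libraries, which the P cells at day −2 widen. The main counts of called collagen genes were 17 and 12 on induction in C and P cells, 13 at day −2 and 3 at day 1 between P and C cells, and 3 for the difference between responses. DESeq2 gave 20 at day −2 and 13 for the difference between responses, where it called 9.48% and 6.97% of all genes. Without the filter on low counts, the latter was 7 of 44 tested, where 1.85% of all genes were called. Each comparison fitted with its own 4 libraries gave 4 of 34 on induction in P cells, 2 of 37 at day −2 and 5 of 29 at day 1. Of all genes, 9.57%, 0.637% and 7.16% were called in these fits. An adjusted p under 0.05 gave 7 on induction in P cells, 7 at day −2 and 1 for the difference between responses. Leaving out 1 library gave 6 to 22 on induction in C cells, 3 to 18 in P cells, 2 to 26 at day −2, 0 to 6 at day 1 and 0 to 27 for the difference between responses. The 27 were of 39 tested without replica 2 of P cells at day −2, where 60.0% of all genes were called. At day −2 the count was 3 without replica 1 and 2 without replica 2 of C cells of that day, and 7 without any library of day 1. On induction in P cells it was 6 without replica 1 and 3 without replica 2 of P cells at day 1. For the difference between responses it was 0 or 1 without any library other than the P libraries of day −2. The causes of these shifts were not tested. The split of higher and lower calls changed most for induction in P cells, from 2 and 10 to 11 and 7 without replica 1 of P cells at day −2, and with library totals in place of TMM it was 5 and 9.

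The labels do not say whether the replica numbers pair the libraries. Same-numbered libraries had correlations of −0.355 to 0.209 between conditions, 5 of 6 of them negative, and these values cannot settle it. With the number as a replicate block, 13 collagen genes were called on induction in C cells and 8 in P cells. Between P and C cells it was 7 at day −2 and 3 at day 1, and for the difference between responses 1. Of all genes, 18.6%, 15.6%, 4.48%, 2.89% and 0.877% were called, in this order. An alternative added after the data were seen had the numbers of P cells at day 1 crossed in the block. It gave 7 at day −2 and 1 for the difference between responses, where 5.05% and 1.11% of all genes were called. With all numbers of day 1 crossed, also added then, these were 14 and 3, where 7.69% and 2.35% of all genes were called.

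Without Col1a2 and Col3a1, the share of counts was 1.31% in C cells before induction, and 2.88% in C and 2.98% in P cells after it. On TMM-scaled sizes it was 2.04% in the C libraries of day −2 and 3.79% in the P libraries of day 1. Leaving out 1 replica gave 2.08% to 2.21% in C and 3.14% to 9.16% in P cells before induction, and 3.65% to 4.71% in C and 3.95% to 4.01% in P cells after it.

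The log2 ratios of the collagen genes named turned their sign 33 times over all alternative fits, among them those of 11 genes on induction in P cells. With library totals, Col12a1 had 0.046 on induction in P cells and Col20a1 0.0073 at day 1 between the cell types, and with the replicate block Col28a1 had −0.015 there. Leaving out 1 library turned the sign, within the ranges given over all such fits, of Col16a1 (−0.45 to 0.15) and Col1a2 (−0.026 to 0.56) on induction in C cells. On induction in P cells it did so for Col11a1 (−0.18 to 1.74), Col12a1 (−0.25 to 0.011), Col18a1 (−1.07 to 0.52), Col27a1 (−0.26 to 1.88), Col3a1 (−1.64 to 0.36), Col4a1 (−0.44 to 1.21), Col4a2 (−0.22 to 1.25), Col5a1 (−1.64 to 0.46), Col9a3 (−0.24 to 0.72), Col25a1 (−2.95 to 0.64) and Col6a6 (−2.41 to 0.35). In P against C cells it did so at day −2 for Col18a1 (−0.67 to 0.93), Col25a1 (−2.45 to 0.39), Col6a4 (−0.80 to 0.43) and Col6a6 (−1.07 to 0.047), and at day 1 for Col16a1 (−0.54 to 0.056), Col20a1 (−0.35 to 0.15), Col28a1 (−0.40 to 0.61), Col4a2 (−0.090 to 0.42), Col6a3 (−0.071 to 0.30), Col9a3 (−1.70 to 0.13) and Col19a1 (−1.26 to 0.70). For the difference between responses it did so for Col8a1 (−1.01 to 0.022) and Col17a1 (−2.34 to 0.15). Of the other values of single genes, 2031 kept their direction and side of the threshold, 215 lost and 119 gained a call.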
